A study of Mus musculus with 38 samples.

Results

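The genes described here encode the subunits of microtubules and 3 proteins that act on them: the alpha tubulins Tuba1a and Tuba1b, the beta tubulins Tubb2a, Tubb2b, Tubb3, Tubb5 and Tubb6, stathmin (Stmn1), tau (Mapt) and the plus-end protein EB1 (Mapre1). They were chosen by name, as all probes that the array files assign to one of these genes or to an older synonym (Tuba1 for Tuba1a, Tuba2 for Tuba1b, Tubb2 for Tubb2a), and not by any measured value. The rule gave 10 of the 28786 genes on the array, read by 19 probes on 28 spots. The tumors came from mice with MMTV-PyMT, in which a mouse mammary tumor virus promoter drives polyoma middle T antigen in mammary epithelium, and with GFP under an actin promoter. Hyperplasias of these donors were transplanted into FVB/n females whose mammary fat pads had been cleared of epithelium. GFP-positive cells were sorted from every group, and since actin-GFP is not restricted to epithelium, the sort selects cells of donor origin rather than epithelial cells as such. In the chemotherapy experiment 6 untreated tumors were compared with 6 residual and 4 relapsed tumors, which the labels call regressed and resistant. Treatment began 2 months after transplantation and combined docetaxel (25 mg/kg), doxorubicin (5 mg/kg) and cyclophosphamide (120 mg/kg). Residual tumors were taken 10 days after 1 dose and relapsed tumors 10 days after 4 doses. In the progression experiment, with no drug, 5 adenomas (5-week outgrowths) and 6 carcinomas (18-week outgrowths) were compared with 6 samples of disseminated cells from the lungs of mice with 18-week outgrowths and 5 samples of lung metastases collected 8 to 10 weeks after removal of the primary tumor. Each sample of disseminated cells pooled the lungs of 3 to 6 mice.

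Microtubules are hollow polymers of alpha and beta tubulin dimers that grow and shrink at their plus ends, and they build the mitotic spindle. Docetaxel binds the beta subunit inside the polymer and blocks its disassembly, so that dividing cells arrest in mitosis. Mammals express several isotypes of each subunit from separate genes. Tubb5 is widely expressed, Tubb3 is best known from neurons and has been studied as an isotype linked to poor taxane response, and Tubb2a and Tubb2b are close relatives. Stathmin binds free dimers and promotes disassembly, and is abundant in proliferating cells. Tau stabilizes the microtubule wall, and EB1 marks growing plus ends and recruits other proteins there.

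Every value is a log2 ratio of the sample (Cy5) to the same Universal mouse reference RNA (Cy3), so a level of 0 means equal signal in both channels, and levels of different genes cannot be set against each other. All 10 genes were measured on all 38 arrays. The sample channel was well above background at 50.55 to 64.31% of the spots in the chemotherapy experiment and at 48.39 to 78.9% in the progression experiment, and for these genes the exceptions were Mapt on 2 of the 5 adenomas and on 1 of the 6 samples of disseminated cells. The median correlation of an array with the others of its group was 0.89 to 0.94 in the chemotherapy experiment and 0.71 to 0.96 in the progression experiment, where it fell below 0.8 for carcinoma 6, disseminated cells 4 and 6 and metastases 4. Over 13 mammary epithelial markers (Epcam, keratins, milk proteins), the mean log2 ratio was 4.29 to 5.40 in the chemotherapy experiment, 4.24 to 4.48 in adenomas and 3.41 to 4.83 in carcinomas. It was far lower on 3 other arrays, at 0.96 in disseminated cells 3, 1.34 in disseminated cells 5 and 1.20 in metastases 4, so markers of the labeled cell type were weak there. The mean of 11 macrophage markers was -0.45 to 0.17 in adenomas and -0.61 to 4.67 in carcinomas (the highest in carcinoma 6), against 3.75 to 6.13 in disseminated cells and 1.36 to 6.40 in metastases. Results in disseminated cells and metastases are given with and without the 3 arrays low in mammary markers.

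Whether the genes of the docetaxel target and its regulators differed in tumors that survived the drug was asked first. No member was called in residual, relapsed or untreated tumors against each other, where called means an adjusted p below 0.05 in limma's moderated test over all 28786 genes. In residual against untreated tumors 0 of 10 were higher (background 0.174% of all genes) and 0 were lower (background 0.0243%). In relapsed against untreated tumors 0 of 10 were higher (0.0104%) and 0 were lower (0.00695%), and in relapsed against residual tumors 0 were higher (0.00695%) and 0 were lower (0.278%). With so few genes called anywhere, a count of 0 among 10 is what the background gives. At an unadjusted p below 0.05 the same test counted 1, 0 and 1 members, and the methods' t-test, which the study names only in its legends, counted 0 after Benjamini-Hochberg adjustment in each comparison. The median log2 change of the 10 genes was 0.10, 0.07 and 0.17 in the same order, against -0.0026, 0.0147 and 0.0157 over all genes. The 95% intervals of the log2 changes ran from -1.40 to 0.81, from -0.91 to 1.08 and from -0.66 to 1.50. The widest were those of Stmn1, and each gene's own interval bounds the change that these arrays leave possible.

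**Figure D1:**
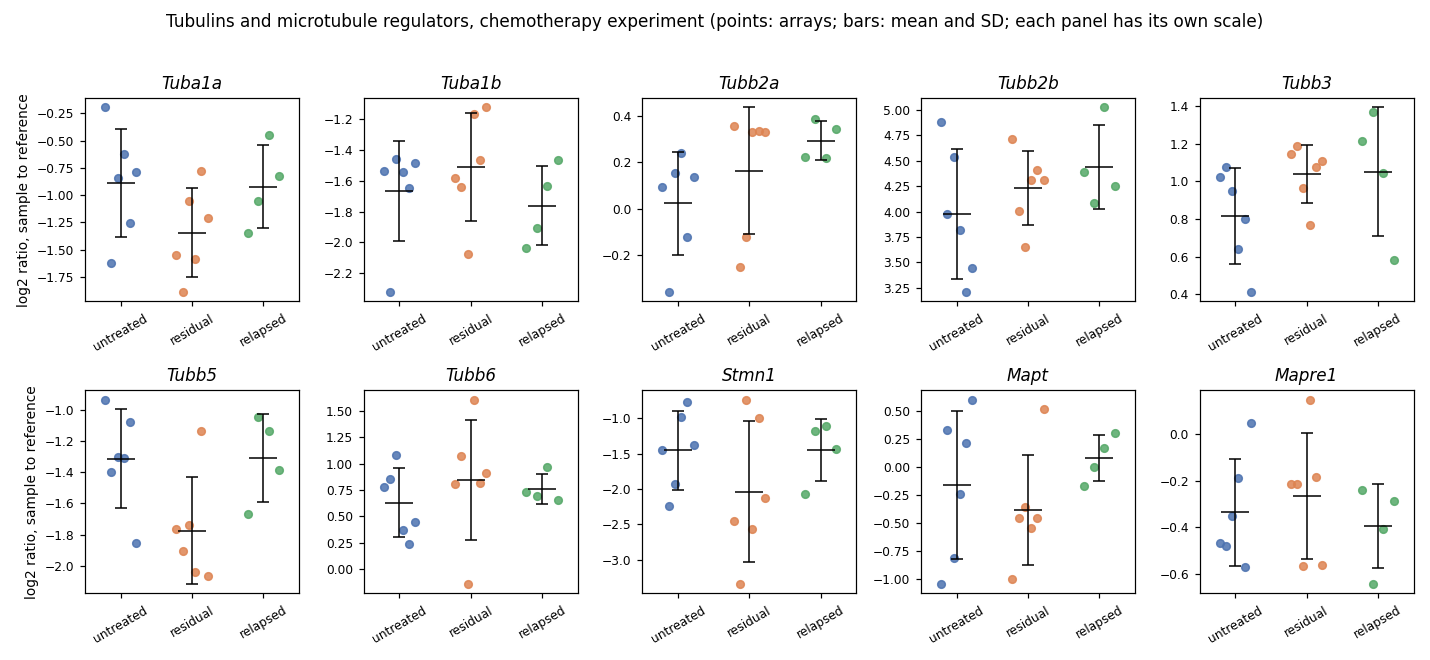
Log2 ratio of tumor to reference (y axis, each panel on its own scale) for the 10 genes in untreated (n = 6), residual (n = 6) and relapsed (n = 4) tumors, where points are arrays and bars the mean and SD. The 3 groups overlap in every panel.

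Among the beta tubulins, Tubb5 had the lowest p in residual tumors. Its level was -1.85 to -0.94 in untreated tumors (median -1.31) and -2.06 to -1.13 in residual tumors (median -1.83), while the 4 relapsed tumors were at -1.67, -1.05, -1.13 and -1.38. Residual 4 and 6 were at the low end and residual 5 at the high end of the residual tumors, and the 3 groups overlapped. Its log2 change was -0.46 (SE 0.17) in residual against untreated tumors (adjusted p = 0.416) and 0.46 (SE 0.19) in relapsed against residual tumors (adjusted p = 0.576). The other Tubb5 probe, almost as bright, had smaller log2 changes of the same signs, -0.16 (SE 0.13) and 0.29 (SE 0.15). By the brightest probe, the difference on the single slide that held both groups was -0.90 in the first comparison (2 residual arrays, 1 untreated). It was 0.70 in the second (2 relapsed arrays, 1 residual). Each pair of the 3 chemotherapy groups shared only 1 slide, so group and slide overlapped in part.

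Tubb3, the neuronal isotype, was at 0.41 to 1.08 in untreated tumors (median 0.87) and 0.77 to 1.19 in residual tumors (median 1.09). The 4 relapsed tumors were at 1.22, 1.37, 1.04 and 0.58, which is on both sides of the residual median. The log2 change was 0.22 in residual and 0.24 in relapsed tumors against untreated tumors, with 95% intervals of -0.06 to 0.51 and -0.09 to 0.56, which lie inside 1 log2 unit, a doubling, on both sides. Tubb3 was read by 1 probe on 10 spots, which differed within an array by a median SD of 0.056.

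Tubb2b was at 3.21 to 4.88 in untreated, 3.65 to 4.71 in residual and 4.08 to 5.02 in relapsed tumors, and its log2 change of 0.46 in relapsed against untreated tumors (95% interval -0.16 to 1.08) was the largest of that comparison. Tubb2a, by its brightest probe, ranged from -0.36 to 0.39 over all 16 arrays. Another Tubb2a probe changed by 0.45 (SE 0.12) in relapsed against untreated and by 0.32 (SE 0.12) in relapsed against residual tumors, and the dimmest by 0.14 and -0.03. Tubb6, by its brightest probe, was at -0.14 to 1.61 in residual tumors, a range that held all untreated and relapsed values. Its far dimmer probe changed by 0.35 and 0.30 in the same comparisons. None of these other probes was called over all probes (lowest adjusted p = 0.306). By their brightest probes none of these 3 isotypes separated the groups. Of the alpha tubulins, Tuba1a was at -1.62 to -0.20 in untreated tumors and -1.89 to -0.77 in residual tumors, a log2 change of -0.46 (SE 0.23), and Tuba1b at -2.32 to -1.46 and -2.08 to -1.12, a log2 change of 0.16 (SE 0.17).

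Stathmin showed the widest spread of the 10 genes in residual tumors. Its level was -3.34 to -0.74 in the residual tumors (median -2.29), against -2.24 to -0.77 in untreated tumors (median -1.41) and -2.07, -1.18, -1.11 and -1.43 in the 4 relapsed tumors. Residual 2, 4 and 1 were lower than every untreated tumor, and residual 3 and 5 were among the highest values, so the groups overlapped. For Stmn1 the log2 change was -0.58 (SE 0.39) in residual against untreated and 0.59 (SE 0.43) in relapsed against residual tumors, neither called. These values come from the brightest probe. The other Stmn1 probe had log2 changes of -0.10 (SE 0.11) and -0.05 (SE 0.12) and showed neither the fall nor the rise. Stmn1 is a gene of proliferating cells, and 20 cell-cycle genes (Mki67, Top2a, Ccnb1 and others) had a mean log2 ratio of -2.65 in residual, -2.09 in untreated and -2.26 in relapsed tumors. In residual against untreated tumors 20 of 20 of them had a negative log2 change (median -0.55) and 0 were called, and in relapsed against residual tumors 19 of 20 had a positive change (median 0.40) and 0 were called. At an unadjusted p below 0.05 these lists held 2 and 1 genes. Their part in the Stmn1 values was not tested.

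Tau and EB1 did not separate the groups either. Mapt was at -1.05 to 0.61 in untreated and -1.01 to 0.52 in residual tumors, with relapsed tumors at -0.17, 0.00, 0.17 and 0.31. By its brightest probe, Mapre1 was at -0.57 to 0.05, -0.57 to 0.15 and -0.64 to -0.24 in the 3 groups, with log2 changes between -0.13 and 0.07. Another Mapre1 probe changed by 0.38 (SE 0.12) in relapsed against untreated and by 0.25 (SE 0.12) in relapsed against residual tumors. The remaining probe changed by 0.01 and -0.12, and none of these was called over all probes. Beyond the members, 104 further genes were measured in 7 lists of the microtubule system: other tubulins, tubulin folding cofactors, wall-binding and plus-end proteins, destabilizers, the nucleation complex and tubulin-modifying enzymes. Of these 104 genes limma called 0 in each of the 3 comparisons, and 9, 8 and 9 had an unadjusted p below 0.05. The share of all genes at that unadjusted threshold was not computed, so the unadjusted counts here and above are not read as an excess.

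**Figure D2:**
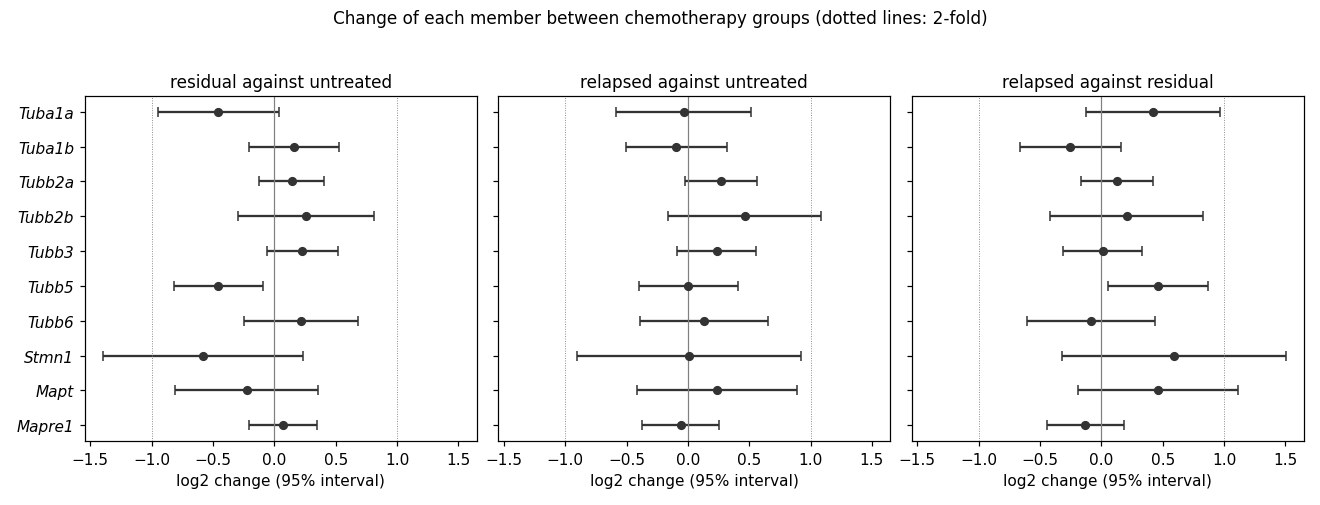
Log2 change of each gene (x axis) with its 95% interval, in residual against untreated, relapsed against untreated and relapsed against residual tumors, with dotted lines at 2-fold. Stmn1 has the widest intervals, and 0 of the 10 genes were called in each comparison.

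In the progression experiment several of these genes did differ. Most calls were in disseminated cells, where Tubb2a, Tubb5 and Stmn1 were lower than in both adenomas and carcinomas and Tubb2b was lower than in carcinomas. Tubb2b rose in metastases against disseminated cells, Tuba1b rose and Tubb3 fell in metastases against both primary stages, and Mapre1, by its brightest probe but not by its other probes, was lower in carcinomas than in adenomas and in disseminated cells. Tuba1a, Tubb6 and Mapt were called in none of the 6 comparisons. The counts are read against the share of all genes called. In carcinomas against adenomas 0 of 10 members rose (background 3.49%) and 1 fell (3.41%). In metastases 1 rose and 1 fell against adenomas (12.2% and 17.2%), and 1 rose and 1 fell against carcinomas (8.2% and 14.4%). Metastases against disseminated cells had 1 member higher and 0 lower (7.1% and 6.22%). Disseminated cells had 1 higher and 4 lower against carcinomas (9.2% and 17.3%), and 0 higher and 3 lower against adenomas (7.69% and 13.6%). With 10 genes none of these counts is read as a departure from the background. Without the 3 arrays low in mammary markers the 7 falls in disseminated cells kept their direction, but none was still called. The members' median log2 change in the order given was 0.04, -0.14, 0.10, 0.57, -0.47 and -0.30, against 0.03, -0.0392, -0.0583, 0.0015, -0.0717 and -0.0536 over all genes.

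The arrays of carcinomas and metastases lay on slides 1 to 3, scanned on 1 day, and those of adenomas and disseminated cells on slides 4 to 6, scanned on another. Comparisons across these sets cannot be told apart from slide and scan day. Metastases against carcinomas and disseminated cells against adenomas could also be compared within slides. All progression samples went through 2 rounds of RNA amplification, which the chemotherapy samples did not, so levels are not compared between the experiments. RNA of sorted cells was measured in bulk, and fewer cells of a type and less RNA per cell cannot be told apart. The labels do not name the animal behind each sample, and p-values measure the spread between these samples, which may be partly technical.

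**Figure D3:**
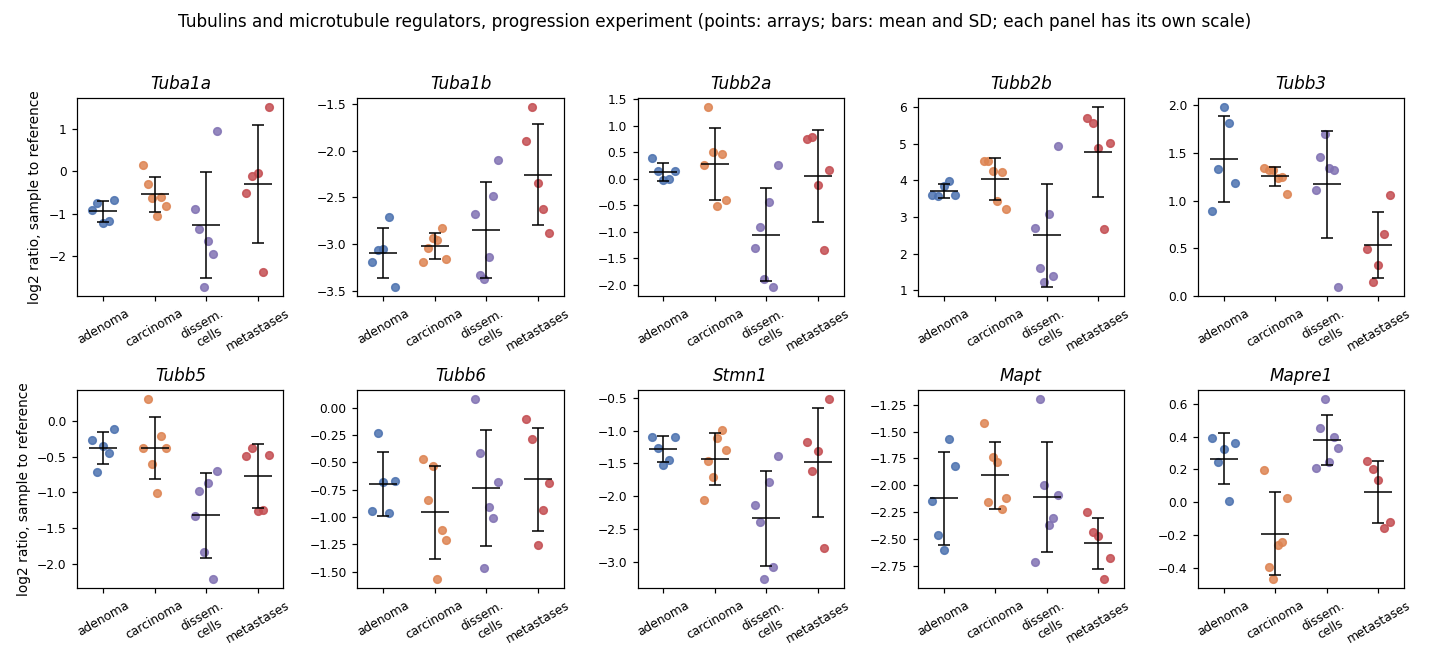
Log2 ratio of sample to reference (y axis, each panel on its own scale) for the 10 genes in adenomas (n = 5), carcinomas (n = 6), disseminated cells (n = 6) and metastases (n = 5), where points are arrays and bars the mean and SD. Tubb2a, Tubb2b, Tubb5 and Stmn1 are lower in most disseminated cell samples, Tubb3 is lower in metastases, and the brightest Mapre1 probe is lower in carcinomas.

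The promoters of Tubb2a and Tubb5, which both fell in disseminated cells, are shown to be read beside those of Tuba1b, which rose in metastases, and Tubb3, which fell there. Each is the 250 bases before the gene's start in RefSeq, build GRCm38.p6. Capitals mark exact matches, on either strand, to the letters of the CCAAT box, of the GC box (GGGCGG), and of the TATA box (TATAAA), with the reverse complement of each counted too.
Tubb2a, chr13:34078009-34078258, minus strand: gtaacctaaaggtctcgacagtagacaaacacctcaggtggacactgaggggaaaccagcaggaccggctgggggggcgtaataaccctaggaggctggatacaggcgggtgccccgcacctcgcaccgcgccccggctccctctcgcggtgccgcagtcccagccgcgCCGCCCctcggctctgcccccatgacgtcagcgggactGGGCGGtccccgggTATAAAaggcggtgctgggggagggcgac
Tubb5, chr17:35838302-35838551, minus strand: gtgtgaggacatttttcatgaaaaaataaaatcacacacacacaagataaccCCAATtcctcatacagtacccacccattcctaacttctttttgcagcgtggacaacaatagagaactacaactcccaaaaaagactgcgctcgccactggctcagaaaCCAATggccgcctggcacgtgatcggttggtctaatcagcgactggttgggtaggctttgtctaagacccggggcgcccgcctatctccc
Tuba1b, chr15:98934391-98934640, minus strand: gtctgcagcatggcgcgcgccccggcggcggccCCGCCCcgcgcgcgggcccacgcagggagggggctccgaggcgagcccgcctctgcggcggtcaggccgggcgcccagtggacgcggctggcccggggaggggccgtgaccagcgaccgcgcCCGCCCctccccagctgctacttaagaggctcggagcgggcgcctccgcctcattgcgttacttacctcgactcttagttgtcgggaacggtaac
Tubb3, chr8:123411303-123411552, plus strand: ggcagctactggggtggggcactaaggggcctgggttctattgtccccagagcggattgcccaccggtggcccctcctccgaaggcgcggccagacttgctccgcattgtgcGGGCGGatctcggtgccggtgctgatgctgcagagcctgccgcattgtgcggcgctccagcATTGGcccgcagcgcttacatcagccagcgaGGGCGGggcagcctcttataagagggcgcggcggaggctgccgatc
Tubb2a and Tubb5 share none of the 3 motifs in this window. Tubb2a holds GGGCGG 38 and 76 bases before the start and TATAAA 24 bases before it, and Tubb5 holds CCAAT 86 and 194 bases before it. Tuba1b holds GGGCGG at 90 and 212 bases, and Tubb3 holds GGGCGG at 41 and 133 bases and CCAAT at 73 bases. Of the 10 genes 6 had a promoter in the table used, of which 4 held CCAAT, 5 GGGCGG and 2 TATAAA, against 33.8%, 32.7% and 12.4% of 32851 promoters of the same length. These matches describe letters and not binding.

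Tubb2a was measured at chr13:33492088-33492147 of build mm7, the build of the array files. Its level was 0.39, 0.14, -0.03, 0.00 and 0.15 in the 5 adenomas and -0.51 to 1.34 in carcinomas (median 0.36). In the 6 samples of disseminated cells it was -2.04 to 0.25 (median -1.10), and in the metastases 0.74, 0.78, -0.12, -1.34 and 0.16. Of the disseminated samples 5 of 6 were below every adenoma and 4 of 6 below every carcinoma, with disseminated cells 6 at 0.25 within both ranges. The log2 change was -1.33 against carcinomas (SE 0.40, adjusted p = 0.0174) and -1.18 against adenomas (SE 0.41, adjusted p = 0.0474). Within the 3 slides that held adenomas and disseminated cells it was -2.11 to -0.64. The call against adenomas was lost when any of the 5 adenomas or disseminated cells 1, 2, 3 or 5 was left out, with log2 changes of -1.45 to -0.99 and adjusted p up to 0.117 over all arrays left out in turn, and that against carcinomas was kept in 12 of 12 cases. Another Tubb2a probe fell by 3.21 against carcinomas (adjusted p = 0.00221 over all probes), and the dimmest of the 3 probes had a log2 change of -1.01 (adjusted p = 0.144).

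Tubb5 fell by 0.94 in disseminated cells against both carcinomas (SE 0.25, adjusted p = 0.00944) and adenomas (SE 0.26, adjusted p = 0.0164). Its level was -0.27, -0.72, -0.35, -0.45 and -0.12 in the 5 adenomas and -1.01 to 0.30 in carcinomas (median -0.38). It was -2.21 to -0.70 in disseminated cells (median -1.15) and -0.49, -0.38, -1.26, -1.25 and -0.47 in the metastases. In disseminated cells 5 of 6 samples were below the lowest adenoma, and 3 of 6 were below the lowest carcinoma. Within the slides shared with adenomas the difference was -1.60 to -0.58. Both calls were kept whichever 1 array was left out. Under Aquantile, an alternative scaling between arrays that made the other Tubb5 probe the brighter, the change against carcinomas was -0.30 and not called (adjusted p = 0.345), and with the deposited ratios the change against adenomas was -0.70 and not called (adjusted p = 0.0748). Its other probe had a log2 change of -0.92 against adenomas (adjusted p = 0.0108) but -0.36 against carcinomas (adjusted p = 0.266), so the fall against carcinomas rests on 1 of the 2 probes. The chemotherapy values above come from this other probe, the brighter there.

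Tubb2b had the largest change of the 10 genes. Its level was 3.59, 3.57, 3.83, 3.99 and 3.60 in the adenomas, 3.21 to 4.53 in carcinomas (median 4.25) and 1.24 to 4.93 in disseminated cells (median 2.17). In the metastases it was 5.71, 5.56, 4.88, 2.67 and 5.02. Among disseminated cells 5 of 6 samples were below every carcinoma and 1, disseminated cells 6, was above all of them, and 4 of 5 metastases were above every carcinoma while metastases 4 was below. Metastases had a log2 change of 2.27 against disseminated cells (4.83-fold, SE 0.57, adjusted p = 0.0123), and disseminated cells had one of -1.53 against carcinomas (SE 0.54, adjusted p = 0.0431). Against adenomas it was 1.05 in metastases (adjusted p = 0.197) and -1.22 in disseminated cells (adjusted p = 0.136), neither called. Only 3 of 5 metastases were above every disseminated sample. The SD was 1.23 in metastases and 1.41 in disseminated cells, against 0.19 in adenomas and 0.57 in carcinomas. The call in metastases against disseminated cells was lost with only these groups in the fit (log2 change 2.27, adjusted p = 0.106). It was made in 27 of 29 alternatives, and was kept in 11 of 11 cases with 1 array left out, at 2.02 to 2.80. That against carcinomas was lost without carcinoma 1, 2, 3 or 5 or without disseminated cells 1, 2, 3 or 5 (log2 change -2.02 to -1.28, adjusted p up to 0.105) and with the slide as a random block (adjusted p = 0.0601), and was made in 15 of 30 alternatives. Without disseminated cells 6 the change against adenomas was -1.71 and called (adjusted p = 0.0159), and without metastases 4 the change of metastases against adenomas was 1.58 and called (adjusted p = 0.0382).

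Metastases against disseminated cells depended most on single arrays. Without disseminated cells 6, 6 members were called rather than 1, with log2 changes of 1.41 for Tuba1a, 0.74 for Tuba1b, 1.36 for Tubb2a, -0.85 for Tubb3 and 1.04 for Stmn1 beside Tubb2b. Leaving out metastases 4 gave 3 called members, with Tubb2a at 1.45 and Stmn1 at 1.18, and leaving out metastases 5 gave 3, with Tuba1b at 0.75 and Tubb3 at -0.77. With all arrays the values were 0.97 for Tuba1a (adjusted p = 0.276), 0.59 for Tuba1b (0.103), 1.10 for Tubb2a (0.0860), -0.64 for Tubb3 (0.0813) and 0.85 for Stmn1 (0.110). Without carcinoma 6, disseminated cells 4 and 6 and metastases 4, the arrays low in correlation, 7 members were called. Of all genes 13.3% were then called higher and 13% lower, against 7.1% and 6.22% with all arrays. The share of all genes was not computed with single arrays left out, so those counts are not read as particular to the members.

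Stathmin fell in disseminated cells as well. Its level was -1.10, -1.26, -1.52, -1.45 and -1.10 in the 5 adenomas and -2.05 to -0.99 in carcinomas (median -1.38). It was -3.26 to -1.39 in disseminated cells (median -2.26) and -1.18, -1.61, -1.32, -2.79 and -0.53 in the metastases. The disseminated samples were below every adenoma in 5 of 6 cases and below every carcinoma in 4 of 6. Stmn1 had log2 changes of -1.05 against adenomas (SE 0.34, adjusted p = 0.0353) and -0.90 against carcinomas (SE 0.33, adjusted p = 0.0480), and within the shared slides it was -1.98 to -0.49 against adenomas. The call against adenomas was lost without any 1 of the 5 adenomas or without disseminated cells 2, 3 or 5 (log2 change -1.24 to -0.87, adjusted p up to 0.0885), and that against carcinomas without carcinoma 2, 3, 4, 5 or 6 or disseminated cells 1, 2, 3 or 5 (-1.09 to -0.72, adjusted p up to 0.121). The call against carcinomas was also lost with the slide as a random block (adjusted p = 0.0603), and was made in 10 of 30 alternatives in all. Its other probe had log2 changes of -0.49 against adenomas (adjusted p = 0.0403) and -0.21 against carcinomas (adjusted p = 0.351). Beside it, 14 of the 20 cell-cycle genes were called lower against adenomas (0 higher, median -1.14) and 5 lower and 1 higher against carcinomas (median -0.27). Of all genes 13.6% were called lower and 7.69% higher against adenomas, and 17.3% and 9.2% against carcinomas.

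Markers of other cells moved with these falls. In disseminated cells against carcinomas 10 of 11 macrophage markers, 7 of 9 lung epithelial and 6 of 9 neutrophil markers were called higher, and 5 of 13 mammary epithelial markers were called lower. Against adenomas 11 of 11 macrophage and 7 of 9 lung epithelial markers were higher and 4 of 13 mammary markers lower. The shares of all genes were 9.2% higher and 17.3% lower against carcinomas, and 7.69% and 13.6% against adenomas. The mean of the mammary markers ran from 0.96 to 4.31 in the 6 disseminated samples, and disseminated cells 3 and 5, lowest in these markers, were also lowest in Tubb2a, Tubb2b, Tubb5 and Stmn1, while disseminated cells 6, highest in them, were highest in all 4 genes. Metastases 4, at 1.20, was the lowest metastasis in Tubb2a, Tubb2b and Stmn1, while its Tubb5 was the second lowest. The part of these cells in the falls was not tested. In an alternative chosen after the data were seen, the 3 arrays below 2 in these markers were left out together. Against carcinomas the log2 change was then -0.87 for Tubb2a (adjusted p = 0.0747), -0.94 for Tubb2b (0.152), -0.59 for Tubb5 (0.0701) and -0.49 for Stmn1 (0.160). Against adenomas it was -0.73 for Tubb2a (0.177), -0.59 for Tubb5 (0.0997) and -0.64 for Stmn1 (0.0974). The direction stayed in all 7 cases, and 0 of the 7 were still called, with 4 disseminated samples left. Of all genes, 12% were then called lower against carcinomas and 6.84% lower against adenomas. The rise of Tubb2b in metastases against disseminated cells was 2.20 without these arrays and stayed called (adjusted p = 0.0124).

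**Figure D4:**
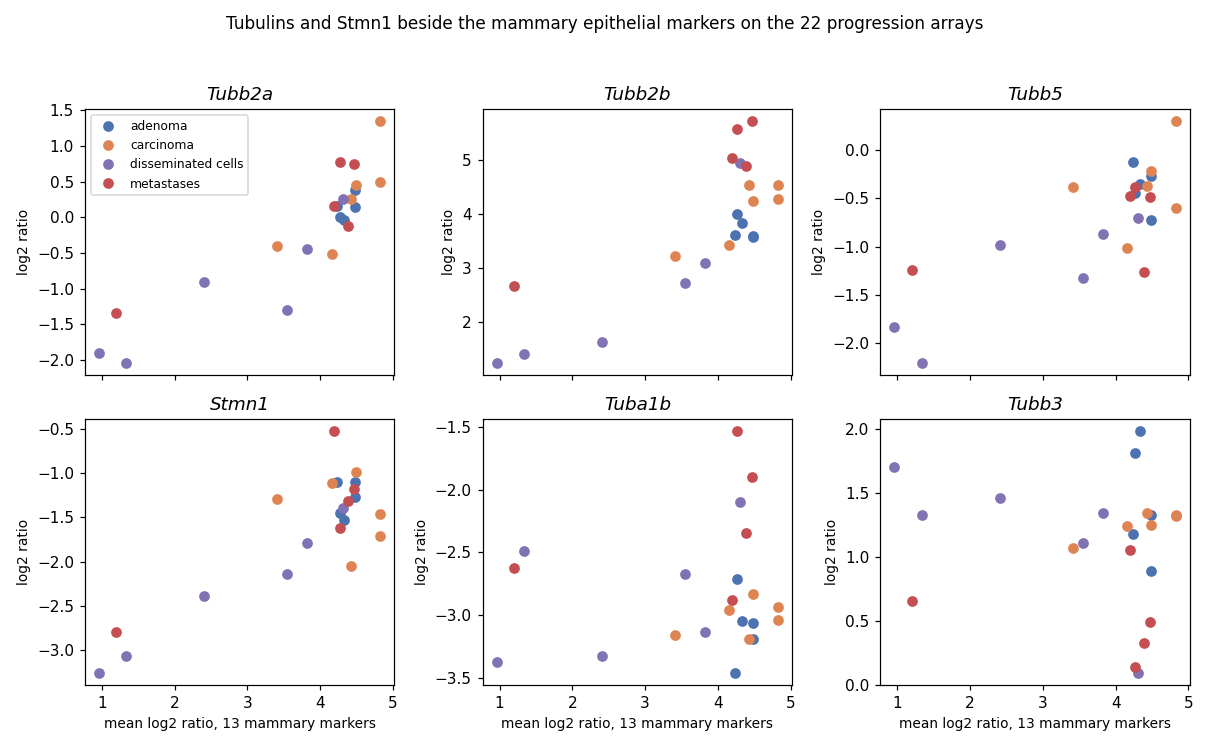
Log2 ratio of 6 genes (y axes) against the mean log2 ratio of 13 mammary epithelial markers (x axis) on the 22 progression arrays, colored by group. The arrays of disseminated cells 3 and 5 and metastases 4, at 0.96, 1.34 and 1.20 on the x axis, hold the lowest values of Tubb2a and Stmn1, with no such order for Tuba1b and Tubb3.

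Of the alpha tubulins, Tuba1b (chr15:98918047-98918238, mm7) rose in metastases. Its level was -3.19, -3.06, -3.05, -2.71 and -3.46 in the 5 adenomas, -3.19 to -2.83 in carcinomas (median -3.00) and -3.38 to -2.09 in disseminated cells (median -2.91). In the metastases it was -1.90, -1.53, -2.34, -2.63 and -2.88, and 4 of the 5 were above every adenoma and every carcinoma, with metastases 5 inside both ranges. The log2 change was 0.84 against adenomas (1.79-fold, SE 0.25, adjusted p = 0.0142) and 0.76 against carcinomas (SE 0.24, adjusted p = 0.0243), and within the slides that held carcinomas and metastases it was 0.39 to 1.46, positive on 3 of 3. Against carcinomas the call was lost without carcinoma 1 (0.73, adjusted p = 0.0506), metastases 1 (0.67, adjusted p = 0.0706) or metastases 2 (0.58, adjusted p = 0.0806). Tuba1a varied widely within disseminated cells (-2.72 to 0.94, SD 1.25) and metastases (-2.36 to 1.50, SD 1.38), and less in adenomas (SD 0.25) and carcinomas (SD 0.42). Its log2 changes in the 6 comparisons ranged from -0.73 to 0.97, with none called. Without the 4 arrays low in correlation it was called in metastases against adenomas (1.16) and disseminated cells (1.94), and in disseminated cells against carcinomas (-1.24). Tuba1a and Tuba1b encode nearly identical proteins, and how far a probe for 1 also binds the other transcript was not measured.

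Tubb3 fell in metastases. Its level was 0.89, 1.33, 1.98, 1.81 and 1.18 in the 5 adenomas, 1.07 to 1.34 in carcinomas (median 1.28) and 0.09 to 1.70 in disseminated cells (median 1.33). In the metastases it was 0.49, 0.14, 0.32, 0.65 and 1.05. All 5 metastases were below every carcinoma and 4 of 5 below every adenoma. Before normalization the median sample signal of Tubb3 was 1937 in adenomas, 2067 in carcinomas and 2359 in metastases. These signals are not scaled between arrays, and that of Tubb6 was also higher in metastases (90500) than in adenomas (52740). The fall described here is that of the normalized ratio to the reference, and its relation to the raw signal was not tested. The log2 change was -0.91 against adenomas (SE 0.25, adjusted p = 0.00931) and -0.72 against carcinomas (SE 0.24, adjusted p = 0.0325), and within slides it was -1.02 to -0.59 against carcinomas. Against disseminated cells it was -0.64 (adjusted p = 0.0813). The call against carcinomas was lost without carcinoma 1, 2, 3, 4 or 5 or metastases 1, 2 or 3 (log2 change -0.85 to -0.63, adjusted p up to 0.0868), and that against adenomas was kept in 10 of 10 cases. Without the 3 arrays low in mammary markers Tubb3 still changed by -0.94 against adenomas and by -0.75 against carcinomas (adjusted p = 0.0448), and Tuba1b by 0.93 and 0.85 (adjusted p = 0.0221 against carcinomas). Of the 10 neuronal markers on the array, 1 to 7 were well above background on a progression array, and 1 was called lower in metastases against carcinomas. Metastases against carcinomas had 5 of 11 macrophage markers and 4 of 9 lung epithelial markers called higher and 2 of 13 mammary markers called lower, and metastases against adenomas had 11 of 11 and 5 of 9 higher and 3 of 13 lower. The shares of all genes were 8.2% higher and 14.4% lower against carcinomas, and 12.2% and 17.2% against adenomas. The part of the cells behind these markers in the changes of Tubb3 and Tuba1b was not tested.

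The probes of EB1 gave different directions in some comparisons. By its brightest probe (chr2:153509112-153509171, mm7), Mapre1 was at 0.39, 0.25, 0.33, 0.01 and 0.36 in the 5 adenomas and at -0.47 to 0.20 in carcinomas (median -0.25). It was at 0.21 to 0.63 in disseminated cells (median 0.36) and 0.25, 0.20, 0.14, -0.16 and -0.12 in the metastases. All 6 disseminated samples were above every carcinoma. The log2 change was -0.46 in carcinomas against adenomas (SE 0.12, adjusted p = 0.0269) and 0.57 in disseminated cells against carcinomas (SE 0.12, adjusted p = 0.00159), the latter still 0.50 (adjusted p = 0.0131) without disseminated cells 3 and 5 and metastases 4. The call in carcinomas against adenomas was lost without adenoma 1, 3 or 5 or carcinoma 2, 3, 4 or 5 (log2 change -0.54 to -0.40, adjusted p up to 0.0682). The 2 dimmer probes did not show these changes, with log2 changes of -0.09 and 0.61 in carcinomas against adenomas and of 0.08 and 0.05 in disseminated cells against carcinomas. They were called higher in metastases against adenomas, by 0.76 and 1.10, where the brightest had a log2 change of -0.20 and was not called. In metastases against carcinomas the brightest probe rose by 0.25 and was not called, at 0.18 to 0.34 within the shared slides. The dimmer probes rose there as well, by 0.85 (adjusted p = 0.00908 over all probes) and 0.50 (adjusted p = 0.115). Because the signs differed in carcinomas and in metastases against adenomas, no single direction for Mapre1 as a gene is given across the comparisons.

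**Figure D5:**
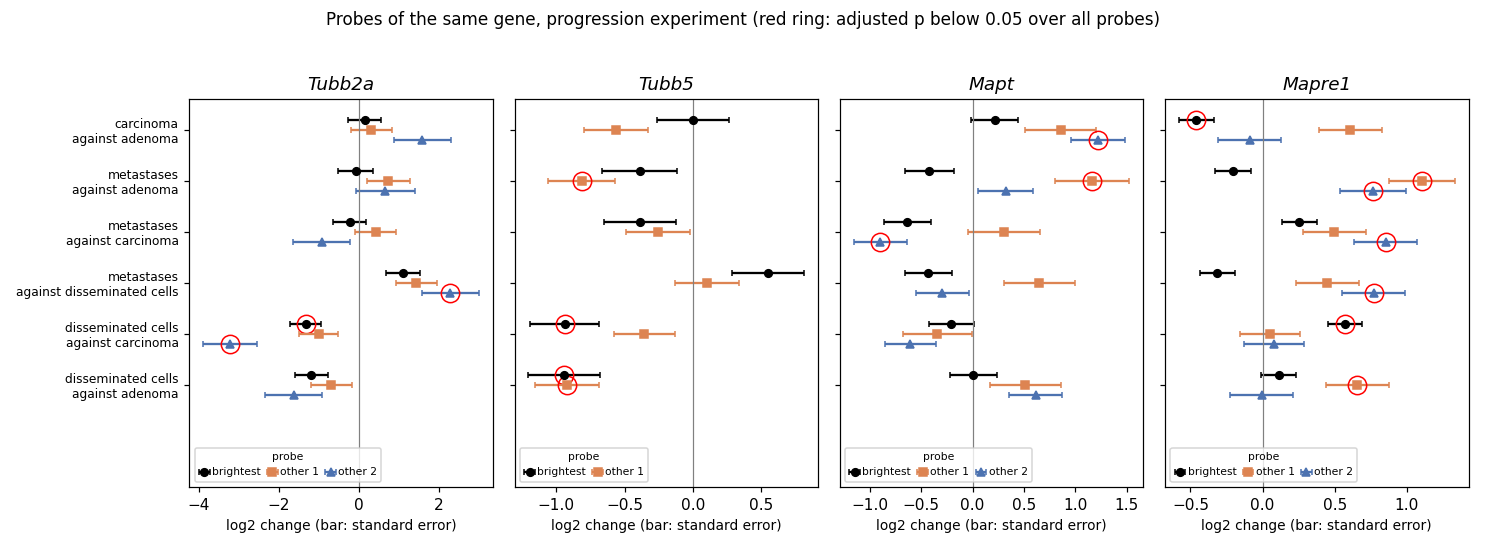
Log2 change with its standard error (x axis) of each probe of Tubb2a, Tubb5, Mapt and Mapre1 in the 6 progression comparisons, with red rings at an adjusted p below 0.05 over all probes. The brightest probe stands for the gene in the text, and the Mapre1 and Mapt probes differ in sign in some comparisons.

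Tubb6 had log2 changes between -0.26 and 0.30 in the 6 comparisons, none called, with levels of -1.57 to 0.08 over all 22 arrays. Mapt was near the limit of detection, and its level was -2.60 to -1.57 in adenomas, -2.22 to -1.42 in carcinomas and -2.72 to -1.20 in disseminated cells. The metastases were at -2.25, -2.44, -2.48, -2.87 and -2.68, all 5 below every carcinoma, with a log2 change of -0.64 (SE 0.23) close to the threshold (adjusted p = 0.0526). It passed the threshold under 8 alternatives, from -0.64 to -0.83, among them Aquantile (-0.83, adjusted p = 0.0147), the deposited ratios (-0.83, adjusted p = 0.0124), the slide as a random block (-0.64, adjusted p = 0.0452) and the fit without carcinoma 6 (-0.68, adjusted p = 0.0447). Against adenomas it was -0.42 and not called, and it was called under 4 alternatives at -0.84 to -0.77. The other Mapt probes differed from it in carcinomas against adenomas, where 1 of them rose by 1.22 (adjusted p = 0.00680), and in metastases against adenomas, where the other rose by 1.16 (adjusted p = 0.0214). In metastases against carcinomas the probe that rose by 1.22 fell by 0.90 (log2 change -0.90, adjusted p = 0.0174 over all probes). The probe that rose by 1.16 had a log2 change of 0.31 there (adjusted p = 0.605), so the probes differed in sign.

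The rest of the microtubule system moved in both directions. Of the 104 listed genes, 3 rose and 5 fell in carcinomas against adenomas, 19 rose and 20 fell in metastases against adenomas, and 17 rose and 16 fell in metastases against carcinomas. Metastases against disseminated cells had 12 higher and 10 lower, and disseminated cells had 10 higher and 21 lower against carcinomas, and 6 higher and 26 lower against adenomas. The shares of all genes are given above with the member counts. Without disseminated cells 3 and 5 and metastases 4, metastases had 18 higher and 20 lower against adenomas, 13 and 14 against carcinomas and 5 and 10 against disseminated cells. The backgrounds in the same order were 10.5% and 15.2%, 6.97% and 12.5%, and 4.45% and 3.74%. Disseminated cells then had 5 higher and 17 lower against carcinomas (backgrounds 6.28% and 12%) and 3 higher and 11 lower against adenomas (4.5% and 6.84%). In metastases against adenomas 8 of 22 tubulin folding cofactors rose and 2 fell (backgrounds 12.2% and 17.2%). Cct2, a subunit of the chaperonin that folds tubulin, rose by 2.32 and Vbp1, a prefoldin subunit, by 2.86, while the prefoldin subunits Pfdn5 and Pfdn1 fell by 2.42 and 2.03. Against carcinomas Cct2 rose by 1.93 and Vbp1 by 2.10, and Pfdn5 fell by 1.75 and Pfdn1 by 1.48, as did the polyglutamylase gene Ttll5 by 1.22, while Pcna, a replication clamp, rose by 2.10. Tubb4b, another beta isotype, rose by 2.80 in metastases against adenomas and by 2.45 against disseminated cells, where Cct2 rose by 1.87 and Map1lc3a, a light chain also used in autophagy, by 1.63, and Pfdn5 fell by 1.64, Map1s by 1.54 and Tppp3 by 2.03.

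In carcinomas against adenomas 1 of the 12 plus-end genes and 3 of the 10 nucleation genes fell (background 3.41%). In metastases against adenomas 5 plus-end genes fell and 2 rose, and 3 nucleation genes fell and 1 rose (backgrounds 17.2% lower and 12.2% higher). Ckap5, the microtubule polymerase chTOG, fell by 1.77 in carcinomas and by 2.18 in metastases against adenomas, and Cdk5rap2, a centrosomal nucleation factor, fell by 1.58 in carcinomas. In the same comparison Top2a fell by 1.36, and Tuba1c (Tuba6 in the array files) rose by 2.25, Pfdn6 by 0.76 and the deglutamylase Agbl5 by 0.45. Tuba1c fell by 1.92 in disseminated cells against carcinomas, together with Mzt2 by 1.63 and Ccnb1 by 1.61. Disseminated cells had higher Tppp3 (by 2.22 against carcinomas and 3.68 against adenomas) and Mapre2, a relative of EB1 (1.66 and 1.54), with Pfdn4 higher by 1.15 against carcinomas and Ttll3 by 1.13 against adenomas. Against adenomas Map7, a wall-binding protein, fell by 2.81, the mitotic cyclin Ccnb1 fell by 2.08 and the mitotic activator Cdc20 fell by 1.81. Of the 21 tubulin-modifying enzymes 10 fell and 2 rose in disseminated cells against adenomas (backgrounds 13.6% and 7.69%), and 8 fell and 1 rose against carcinomas (17.3% and 9.2%). Without the 3 arrays low in mammary markers 5 fell and 1 rose, and 7 fell and 1 rose. The shift of these samples in macrophage, lung and mammary markers is given above, and its part in these counts was not tested. All adjusted p-values of these named genes were below 0.05 in limma. In the comparisons that include disseminated cells or metastases they kept direction and call without the 3 arrays, except that Map1lc3a (1.75, adjusted p = 0.0563), Pfdn4 (0.95, adjusted p = 0.123) and Ttll3 (1.01, adjusted p = 0.138) were no longer called.

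Some genes followed a member closely over the 22 progression arrays, among 13675 genes well above background on all of them. The correlations share arrays, cell content and group differences and carry no test. Tubb2a was most like Uaca (Pearson r = 0.93), the luminal keratin Krt8 (0.93) and Vwa1 (0.92), and Tubb5 like Blcap (0.88), Uaca (0.87) and Phf13 (0.86). Tubb2b was most like Mod1 (0.96), Cep170b (0.93) and Epb41l4a (0.93), Stmn1 like Melk, a kinase of dividing cells (0.91), 4930519N13Rik (0.90) and Dut (0.90), and Tuba1b like Ddb1 (0.91) beside 2 sequences without a gene name. Tubb3 was most like the olfactory receptor genes Olfr577 (0.95) and Olfr609 (0.95) and like Plcl1 (0.95). How far the Tubb3 ratio follows signal other than its own transcript was not tested. Mapre1, by its brightest probe, was like a probe without a gene name (0.90) and Rab10 (0.87).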

How the data were processed

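RNA was amplified (1 round of labeling for the chemotherapy samples, 2 rounds of amplification for the progression samples), labeled with Cy5 and hybridized with Cy3 Universal mouse reference RNA to Agilent arrays without dye swaps. The authors deposited scanner files with background-inclusive mean and background median intensity per spot (Feature Extraction 10.7, submitters' processing notes). They also deposited a table of log2 ratios, with column medians of 0.0047 to 0.0526 and correlations of 0.985 to 0.999 with the values used here, whose exact normalization stays unknown and which served as an alternative. Intensity was corrected with normexp (offset 50, fitted on unflagged spots after leaving out 91 to 331 flagged spots per array), followed by loess within and quantile normalization between arrays, separately for each experiment, in limma 3.58.1 and R 4.3.3. The brightest probe stood for a gene, 22951 probes were named through their accession and 18223 by the file, and groups were compared over all 28786 genes with limma's moderated test and Benjamini-Hochberg adjustment at 0.05. A t-test that the study names in its legends, but not in its methods, was also run. The steps were tested on simulated data. Probe positions are those of the array files (mm7), and no genome of that build was used. Precision is limited by the number of arrays. Isotypes are similar in sequence, and binding of a probe to another isotype was not measured.

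All members are described, and of each comparison's called pathway genes the 3 with the largest change in each direction were named. The 3 genes most correlated with a called member were named as well, except 1 that is not reported here. Members and lists were chosen with earlier results of these data known. Alternatives covered background correction, scaling, deposited ratios, dim probes, probe summary, slide and replicate blocks, samples in the fit, a fold minimum of 1 log2 unit and each array left out. Fitting normexp on all spots and leaving out arrays of low correlation or low mammary markers were chosen after seeing the data.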

Additional observations from a re-analysis of the deposited data

Results flagged for a closer look

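Of the 70 sets of values (10 genes in 7 groups), 5 held an array whose distance from its nearest neighbor, relative to the whole range of the group, passed Dixon's 95% limit, and chance gives about 1 in 20. In untreated tumors, untreated 2 was lowest in Tuba1b, with a log2 ratio of -2.32 against -1.65 in the next array. In residual tumors, residual 5 was highest in Tubb5, at -1.13 against -1.74. In metastases, metastases 4 was lowest in Tubb2b, at 2.67 against 4.88, and this array was also low in mammary markers. Carcinoma 6 was lowest in Tubb3, at 1.07 against 1.24, within a group whose SD was 0.10. Disseminated cells 6 were lowest in Tubb3, at 0.0919 against 1.11, while they were highest in Tubb2a, Tubb2b, Tubb5 and Stmn1.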

How the results depend on the processing

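In the chemotherapy experiment 0 members were called under every alternative run, the replicate block and each array left out included. In the progression experiment the number of called members was 0 to 1 (carcinomas against adenomas), 2 to 3 (metastases against adenomas), 0 to 3 (metastases against carcinomas), 1 to 6 (metastases against disseminated cells), 3 to 5 (disseminated cells against carcinomas) and 1 to 4 (disseminated cells against adenomas) with 1 array left out. In carcinomas against adenomas it was 0 rather than 1 with normexp offset 0, with Aquantile, without between-array scaling, with the deposited ratios, by the t-test of the study's legends or with a fold minimum. In metastases against adenomas it was 1 with the t-test, 0 with the fold minimum and 4 without the 4 arrays of low correlation, and against carcinomas 0 with the fold minimum and 3 with Aquantile or without the arrays of low correlation. In metastases against disseminated cells it was 2 with Aquantile, no between-array scaling, the mean of the probes or the replicate block, 3 with the deposited ratios, 7 without the arrays of low correlation, and 0 with only those groups in the fit or with the t-test. In disseminated cells against carcinomas it was 3 with normexp on all spots, the mean of the probes, the slide as a random block, the replicate block or only those groups in the fit, 2 with the fold minimum, 1 with the t-test or without the arrays low in mammary markers, and 6 without the arrays of low correlation. With the slide as a random block the calls of Tubb2b and Stmn1 were lost. Against adenomas it was 1 with Aquantile or without between-array scaling, 0 with the deposited ratios, the t-test or without the arrays low in mammary markers, and 4 without the arrays of low correlation. The mean of its probes turned Mapre1 to 0.0198 in carcinomas (adjusted p = 0.950) and 0.55 in metastases (adjusted p = 0.00434), both against adenomas. The causes were not tested. Apart from the sets of arrays left out together, no share of all genes was computed for these alternatives. Their counts are not read as particular to the members. The labels do not say whether samples with the same replicate number belong together. Of such pairs 8 of 31 in the progression and 6 of 14 in the chemotherapy experiment correlated above 0.1. Their median correlation was -0.0201 and 0.0369, against -0.0104 and 0.0077 in the other pairs. A fixed slide block could be fitted for 2 progression comparisons and left 2 members called in metastases against carcinomas and 3 in disseminated cells against adenomas. The median of all genes moved by at most 0.0604 under the 6 other background corrections and scalings.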
